A study of Mus musculus with 6 samples.

Results

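The genes that write, read and erase methylation of histone H3 lysine 9 (H3K9) were examined together with the genes of the Polycomb complexes, in mouse embryonic stem cells (ESCs) and in the epiblast-like cells (EpiLCs) made from them. The list holds 41 genes chosen by name, and a gene was measured where a probe set of the array carries its symbol and no other. This left 39 genes with 80 probe sets, among 17097 genes measured in the same way. *Cbx8* has no probe set of this kind and the probe set of *Kdm6b* carries several symbols, so neither was analysed here. The values of a gene are those of its brightest probe set, which has the highest mean over the 6 arrays, and its other probe sets are given where they differ.

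The 6 arrays hold 1 culture each of E14tg2a, a mouse ESC line, in which a FLAG-tagged *Prdm14* transgene placed by the piggyBac transposon answers to doxycycline. EpiLCs + PRDM14 labelled *Tet1*/*Tet2* KD and EpiLCs (d2) labelled *Tet1*/*Tet2* KD carry shRNAs against both TET genes, while EpiLCs + PRDM14, EpiLCs (d2) and EpiLCs (d4) carry a scramble shRNA. The label of the ESC array names no shRNA, and the labels of the arrays with PRDM14 give no day. EpiLCs were grown for 2 days with activin A and bFGF and were then replated in another medium with or without doxycycline, which was to switch the transgene on. EpiLCs + PRDM14 therefore differ from EpiLCs (d2) in replating, medium and time as well as in the transgene. These cannot be told apart in that comparison.

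H3K9 methylation marks silent chromatin. SETDB1, SUV39H2 and the pair EHMT1 and EHMT2 place it, the HP1 proteins bind it, and the KDM enzymes remove it. Polycomb repressive complex 2 (PRC2) methylates H3K27 through EZH1 or EZH2, and Polycomb repressive complex 1 (PRC1) ubiquitinates histone H2A through RING1 or RNF2 and holds silent developmental genes in compact chromatin. Both systems are known for keeping lineage and germline genes silent in pluripotent cells.

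All values are log2 signals normalized by the authors by robust multi-array average (RMA), and all differences are log2 differences between single arrays. With 1 array per condition there is no replicate error and no test, and a gene was called higher or lower at 1.5-fold, a log2 difference of 0.585. The arrays labelled KD had deposited medians of 5.07, against 5.28 to 5.29 for the others, and 0.21 was added to every value of both. No label names a separate normalization run for them, and one is inferred here from these medians alone. Below, a run means the KD-labelled arrays or the other arrays. Such a run and the knockdown cannot be told apart between KD-labelled and scramble arrays. The mean of 12 naive ESC markers was 8.94 in EpiLCs + PRDM14 labelled KD, 7.86 in EpiLCs (d2) labelled KD, 8.69 in EpiLCs + PRDM14, 8.88 in ESCs, 7.19 in EpiLCs (d2) and 7.34 in EpiLCs (d4). The mean of 9 primed epiblast markers was 6.62 in EpiLCs + PRDM14 labelled KD, 7.65 in EpiLCs (d2) labelled KD, 6.83 in EpiLCs + PRDM14, 6.71 in ESCs, 8.15 in EpiLCs (d2) and 8.14 in EpiLCs (d4). With the added constant, *Tet2* read 8.71 in EpiLCs (d2) labelled KD and 8.54 in the scramble culture, so it was not lower there. In EpiLCs + PRDM14 it read 7.97 labelled KD and 8.51 in the scramble culture. This difference of -0.54 lay within 1.5-fold with the added constant but past it without. *Tet1* was not analysed, and the paper assessed the knockdown by qRT-PCR and western blot. *Prdm14* read 4.95 in EpiLCs + PRDM14 and 5.04 in EpiLCs (d2), so it was not higher at this probe set. Whether this probe set reads the transgene was not tested, and the paper measured PRDM14 expression by qRT-PCR and western blot. KD and PRDM14 are used as labels only. The 7 markers of pluripotent cells averaged 10.40 to 10.71 over the arrays. Fibroblast markers stayed between 4.51 and 4.69 on average and endoderm markers between 5.37 and 5.52, and in bulk RNA fewer cells of a type and less RNA per cell cannot be told apart.

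The promoters of *Bmi1*, *Eed*, *Phc1* and *Rbbp7* are shown because these genes moved past 1.5-fold between EpiLCs and ESCs or with PRDM14. *Bmi1* did so at both of its probe sets, whereas *Eed*, *Phc1* and *Rbbp7* have only 1 each. Each of these genes also has a single start site among the promoter windows used. Each sequence is the RefSeq promoter window of 300 bases (250 before and 50 after the start of the gene, build GRCm38.p6), 5′ to 3′ on the strand of the gene, with CG dinucleotides in capitals. *Bmi1* lies on the plus strand at chr2:18676768-18677067, *Eed* on the minus strand at chr7:89980927-89981226, *Phc1* on the minus strand at chr6:122340178-122340477 and *Rbbp7* on the plus strand at chrX:162760122-162760421.
Bmi1: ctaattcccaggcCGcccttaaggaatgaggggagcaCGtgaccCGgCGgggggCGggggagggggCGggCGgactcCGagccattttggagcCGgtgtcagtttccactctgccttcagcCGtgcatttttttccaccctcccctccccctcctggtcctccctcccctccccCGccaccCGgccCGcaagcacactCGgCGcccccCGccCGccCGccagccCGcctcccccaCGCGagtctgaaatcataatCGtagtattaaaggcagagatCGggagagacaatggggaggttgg
Eed: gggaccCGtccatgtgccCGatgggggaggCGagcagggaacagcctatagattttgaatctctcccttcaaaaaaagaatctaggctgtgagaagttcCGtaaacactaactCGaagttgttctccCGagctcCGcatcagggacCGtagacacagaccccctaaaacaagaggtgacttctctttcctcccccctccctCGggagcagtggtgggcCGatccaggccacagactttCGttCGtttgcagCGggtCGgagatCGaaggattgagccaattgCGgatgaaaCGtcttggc
Phc1: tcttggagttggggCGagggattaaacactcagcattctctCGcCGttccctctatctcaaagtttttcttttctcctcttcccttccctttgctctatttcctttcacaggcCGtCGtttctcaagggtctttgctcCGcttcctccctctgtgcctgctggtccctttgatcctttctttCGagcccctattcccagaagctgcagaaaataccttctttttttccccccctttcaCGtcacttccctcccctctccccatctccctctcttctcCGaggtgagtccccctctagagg
Rbbp7: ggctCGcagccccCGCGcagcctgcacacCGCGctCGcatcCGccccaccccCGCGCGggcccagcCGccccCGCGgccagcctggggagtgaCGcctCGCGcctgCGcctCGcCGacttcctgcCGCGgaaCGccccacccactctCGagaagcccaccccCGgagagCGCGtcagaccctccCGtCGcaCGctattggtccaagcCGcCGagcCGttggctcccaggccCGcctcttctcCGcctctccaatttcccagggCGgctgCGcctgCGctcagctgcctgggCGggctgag
*Rbbp7* holds 38 CG dinucleotides in this window, *Bmi1* 23, *Eed* 17 and *Phc1* 9. The median was 24 over the 53 windows of the 35 measured genes that have one, and 7 over all 32851 windows in the table. On either strand, the E-box CACGTG, which itself contains a CG, occurred in 17.0% of the 53 windows and in 7.15% of all windows. Among the 4 promoters printed above it is present in that of *Bmi1* alone, once, as caCGtg. The octamer ATTTGCAT was found in 3.77% of the 53 windows, those of *Atf7ip* and *Phc2*, against 1.74% of all windows. A match is only a run of letters, and windows of one gene can overlap.

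Within an inferred run, 5 comparisons were made first. EpiLCs + PRDM14 were set against EpiLCs (d2) in the scramble and in the KD-labelled arrays. The others were EpiLCs + PRDM14 against EpiLCs (d4), EpiLCs (d4) against EpiLCs (d2), and EpiLCs (d2) against ESCs. In these 5 comparisons, 11 of the 39 genes passed 1.5-fold at least once and 28 never did. The share of all genes that passed at least once was not counted, so the 11 cannot be set against it. Those that passed are *Ehmt2*, *Cbx5*, *Kdm3a* and *Kdm4c* on the H3K9 side, and *Eed*, *Rbbp7*, *Aebp2*, *Bmi1*, *Kdm2b*, *Phc1* and *Phc2* on the Polycomb side. The largest difference among the other 28 was that of *Suv39h2*, at -0.48 in EpiLCs + PRDM14 against EpiLCs (d2). Across the 4 arrays not labelled KD, 15 genes were brightest in ESCs, 9 in EpiLCs + PRDM14, 8 in EpiLCs (d2) and 7 in EpiLCs (d4). The same split was not made for all genes.

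**Figure D1:**
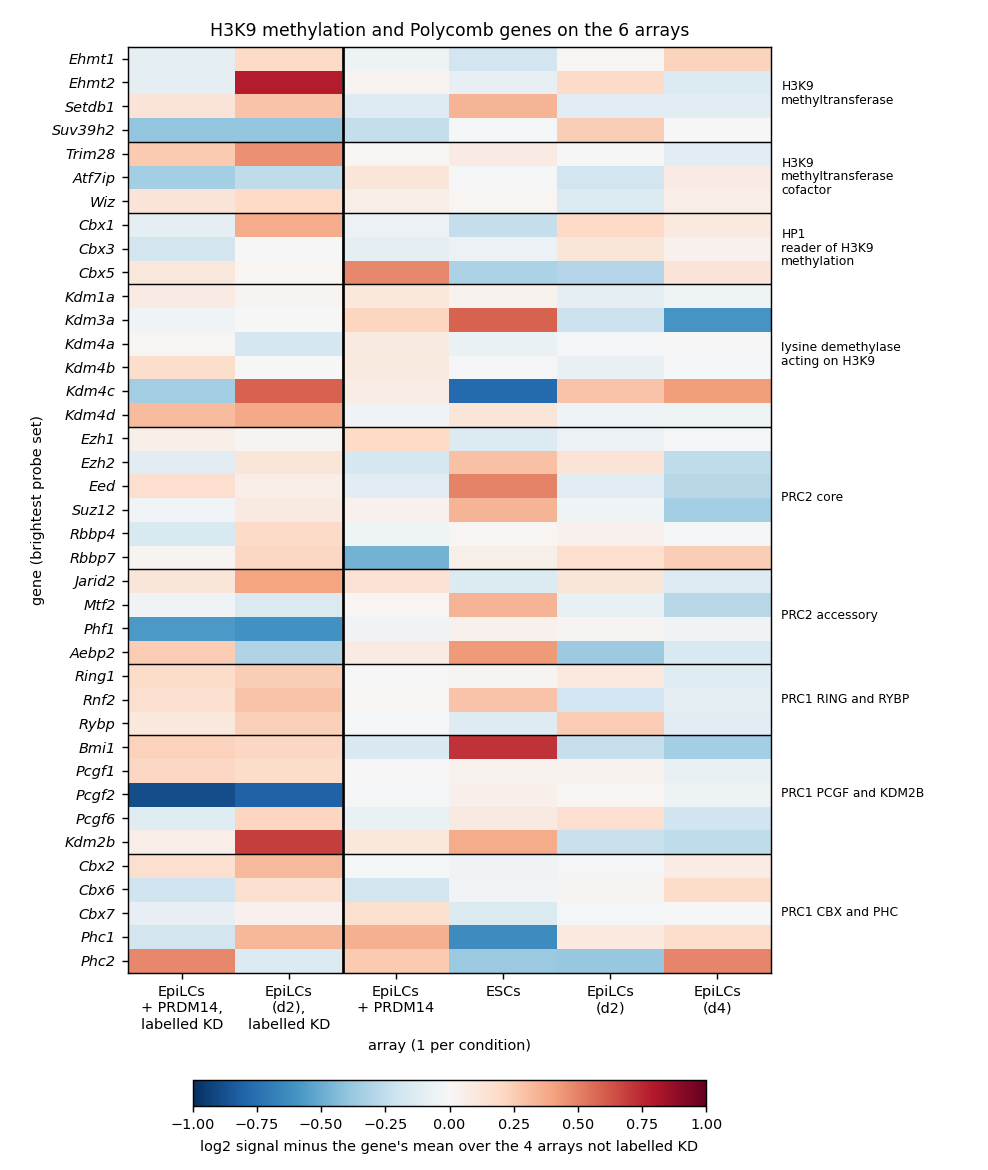
Log2 signal of the 39 genes (rows, brightest probe set, grouped by role) on the 6 arrays (columns, 1 per condition), as the difference from each gene's mean over the 4 arrays not labelled KD, with the KD-labelled arrays left of the black line and raised by 0.21. *Bmi1* and *Eed* stand out in ESCs, *Kdm4c* and *Phc1* are bluest there, and *Ehmt2* and *Kdm2b* are reddest in EpiLCs (d2) labelled KD.

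Of the comparisons made, the step between ESCs and EpiLCs (d2) held the most calls. Of the 39 genes, 2 were higher in EpiLCs (d2) and 5 were lower, 17.9% of the list, where 5.02% of all genes and 8.29% of the 8396 genes with a mean signal of at least 6 passed the same fold. In the list 33 genes have such a signal, and all 7 calls were among them. Shares of the list are over all 39 genes here and below, also where they stand beside the brighter genes. The median of the list was -0.01, as was that of all genes. The nearest gene inside the threshold was *Kdm2b* at -0.59 and the nearest outside was *Rnf2* at -0.47.

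Among the Polycomb genes, *Bmi1*, which encodes the PCGF4 subunit of canonical PRC1, was brightest in ESCs. It read 7.15 in EpiLCs + PRDM14 labelled KD, 7.13 in EpiLCs (d2) labelled KD, 6.77 in EpiLCs + PRDM14, 7.65 in ESCs, 6.69 in EpiLCs (d2) and 6.58 in EpiLCs (d4). All 3 scramble EpiLC arrays lay close together and below the KD-labelled ones. The difference of EpiLCs (d2) from ESCs was -0.95 (1.94-fold), and -1.17 at the second probe set of *Bmi1*. *Eed*, the PRC2 subunit that binds methylated H3K27, read 10.61 in EpiLCs + PRDM14 labelled KD, 10.50 in EpiLCs (d2) labelled KD, 10.33 in EpiLCs + PRDM14, 10.93 in ESCs, 10.32 in EpiLCs (d2) and 10.15 in EpiLCs (d4). Every EpiLC array was below ESCs for this gene, and the difference of EpiLCs (d2) was -0.61 (1.52-fold) at its only probe set.

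*Aebp2*, an accessory subunit of the PRC2 form that also holds JARID2, was lower in EpiLCs (d2) than in ESCs at 1 of its 5 probe sets. The brightest read 8.34 in EpiLCs + PRDM14 labelled KD, 7.78 in EpiLCs (d2) labelled KD, 8.17 in EpiLCs + PRDM14, 8.51 in ESCs, 7.72 in EpiLCs (d2) and 7.94 in EpiLCs (d4). Both day 2 arrays were the lowest, with a difference of -0.79 (1.73-fold) from ESCs, but the other 4 probe sets gave -0.34 to -0.07 and none of them passed. *Kdm2b*, which encodes the protein that brings variant PRC1 to CpG islands, read 8.72 in EpiLCs + PRDM14 labelled KD, 9.34 in EpiLCs (d2) labelled KD, 8.75 in EpiLCs + PRDM14, 9.02 in ESCs, 8.43 in EpiLCs (d2) and 8.39 in EpiLCs (d4). The KD-labelled day 2 array was the highest and the scramble day 2 and day 4 arrays were the lowest. Its difference of -0.59 lay at the threshold, and under quantile normalization or a shift to equal medians it was -0.58, just short of it.

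*Phc1* went the other way. It encodes a Polyhomeotic subunit of canonical PRC1, whose SAM domain lets complexes join into chains. The gene read 9.57 in EpiLCs + PRDM14 labelled KD, 10.08 in EpiLCs (d2) labelled KD, 10.11 in EpiLCs + PRDM14, 9.12 in ESCs, 9.85 in EpiLCs (d2) and 9.93 in EpiLCs (d4). ESCs were the lowest of the 6 arrays, and EpiLCs (d2) were higher by 0.72 (1.65-fold).

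On the H3K9 side, a pair of demethylase genes moved in opposite directions. *Kdm4c*, the gene of a demethylase of trimethylated H3K9, read 7.93 in EpiLCs + PRDM14 labelled KD, 8.87 in EpiLCs (d2) labelled KD, 8.35 in EpiLCs + PRDM14, 7.50 in ESCs, 8.56 in EpiLCs (d2) and 8.69 in EpiLCs (d4). ESCs were again the lowest, and the difference of 1.06 (2.08-fold) was the only one of the list past 2-fold. *Kdm3a*, the gene of a demethylase of mono- and dimethylated H3K9, read 9.42 in EpiLCs + PRDM14 labelled KD, 9.46 in EpiLCs (d2) labelled KD, 9.67 in EpiLCs + PRDM14, 10.05 in ESCs, 9.24 in EpiLCs (d2) and 8.86 in EpiLCs (d4). It was highest in ESCs, -0.81 in EpiLCs (d2) relative to them (1.75-fold), and lowest in EpiLCs (d4).

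**Figure D2:**
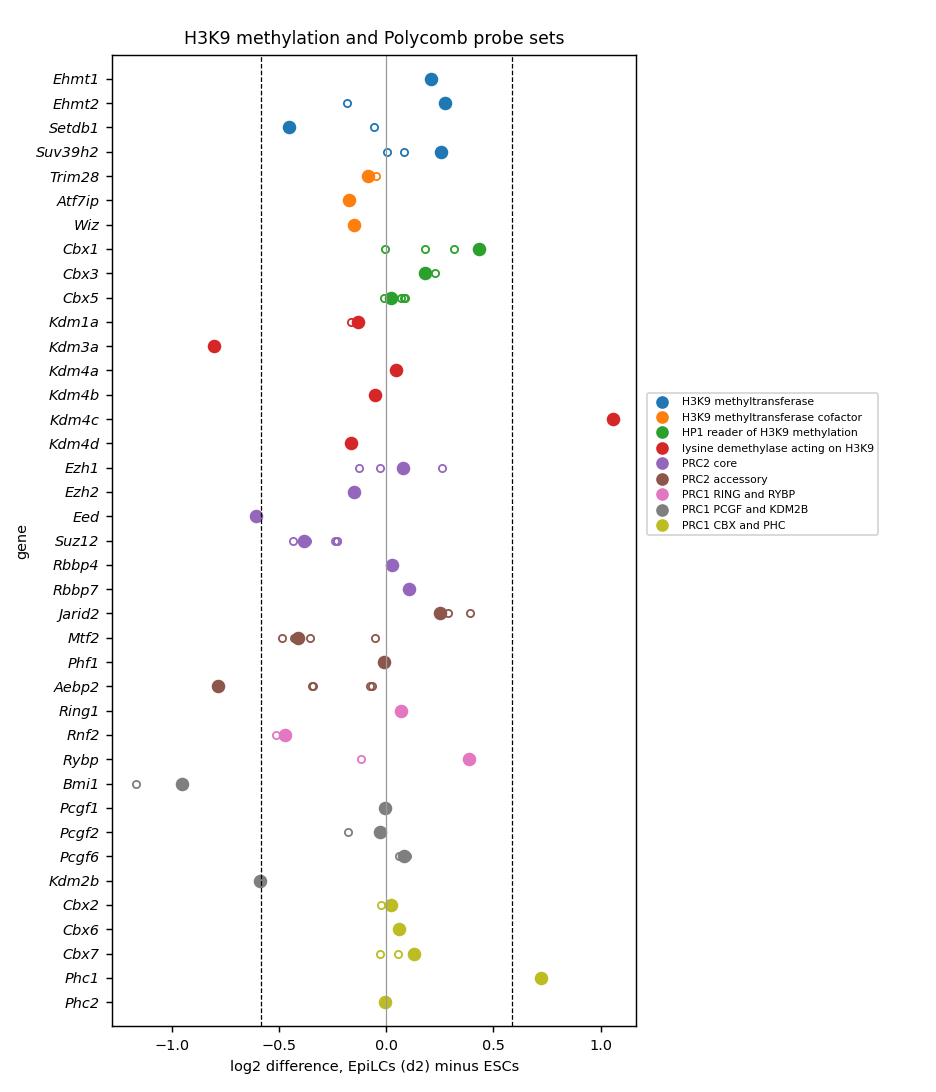
Log2 difference of EpiLCs (d2) minus ESCs (horizontal axis) for every probe set of the 39 genes (rows), with the brightest probe set filled, the others open, colours for roles, and dashed lines at 1.5-fold. The 2 genes to the right of the upper line are *Kdm4c* (1.06) and *Phc1* (0.72), and both probe sets of *Bmi1* lie left of the lower line.

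Several PRC2 genes lay below 0 at this step without passing the threshold. *Suz12*, the scaffold subunit of PRC2, was at -0.38 and its 6 probe sets ran between -0.43 and -0.23. *Mtf2*, a Polycomb-like partner of PRC2, was at -0.41, and 4 of its 5 probe sets lay between -0.49 and -0.35 with the dimmest at -0.05. *Jarid2*, another PRC2 accessory gene, was at 0.25, and its 3 probe sets gave 0.25 to 0.39. The catalytic subunit genes *Ezh2* (-0.15) and *Ezh1* (0.08) were nearer to 0. In PRC1, *Rnf2*, the gene of the main H2A ubiquitin ligase in ESCs, was at -0.47 and at -0.52 at its second probe set, its partner *Ring1* was at 0.07, and *Rybp*, a subunit of variant PRC1, was at 0.39 but at -0.12 at its second probe set. Of the H3K9 methyltransferase genes, *Setdb1* was at -0.45, with -0.06 at its dimmer probe set, while *Ehmt1* (0.21), *Ehmt2* (0.27) and *Suv39h2* (0.26) lay slightly above 0. Among the HP1 genes, *Cbx1* was at 0.43, *Cbx3* at 0.18 and *Cbx5* at 0.02.

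With PRDM14, 2 of the 39 genes were higher than in EpiLCs (d2) and 1 was lower. That is 7.69% of the list, beside 4.63% of all genes and 7.56% of genes with a mean signal of at least 6, so the share was close to that of these brighter genes. All 3 calls were among the 33 genes of the list with such a signal. The median was 0.00 for the list and -0.01 for all genes. *Phc2* at 0.63 was the nearest inside the threshold and *Suv39h2* at -0.48 the nearest outside.

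*Cbx5*, which encodes HP1α, read 8.51 in EpiLCs + PRDM14 labelled KD, 8.41 in EpiLCs (d2) labelled KD, 8.88 in EpiLCs + PRDM14, 8.08 in ESCs, 8.10 in EpiLCs (d2) and 8.52 in EpiLCs (d4). EpiLCs + PRDM14 was the highest array, by 0.77 over EpiLCs (d2) (1.71-fold) and by 0.35 over EpiLCs (d4). The other 4 probe sets of *Cbx5* gave 0.04 to 0.41 against EpiLCs (d2), and the mean over its 5 probe sets was 0.28, so the call rests on 1 probe set. *Cbx1* (-0.25) and *Cbx3* (-0.22), the genes of the other HP1 proteins, lay slightly below 0.

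*Phc2*, a further Polyhomeotic gene, read 7.13 in EpiLCs + PRDM14 labelled KD, 6.51 in EpiLCs (d2) labelled KD, 6.90 in EpiLCs + PRDM14, 6.28 in ESCs, 6.27 in EpiLCs (d2) and 7.13 in EpiLCs (d4). It was low in ESCs and at day 2 and high at day 4 as well as with PRDM14. EpiLCs + PRDM14 exceeded EpiLCs (d2) by 0.63 (1.55-fold) but lay 0.23 below EpiLCs (d4), which itself exceeded EpiLCs (d2) by 0.86 (1.82-fold). The mean of 8 trophoblast markers was 6.60 in EpiLCs + PRDM14 labelled KD, 6.08 in EpiLCs (d2) labelled KD, 6.01 in EpiLCs + PRDM14, 5.88 in ESCs, 5.82 in EpiLCs (d2) and 6.32 in EpiLCs (d4). Of these 8, *Krt7*, *Krt8* and *Ascl2* were higher at day 4 than at day 2, while the defining trophoblast factor genes *Cdx2* (0.01), *Eomes* (-0.09) and *Elf5* (0.00) stayed near 0 in that comparison. Their part in the values of *Phc2* was not tested.

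*Rbbp7*, a histone-binding subunit that PRC2 shares with other chromatin complexes, read 11.31 in EpiLCs + PRDM14 labelled KD, 11.49 in EpiLCs (d2) labelled KD, 10.80 in EpiLCs + PRDM14, 11.33 in ESCs, 11.44 in EpiLCs (d2) and 11.52 in EpiLCs (d4). The scramble array with PRDM14 stood alone below the other 5, by -0.64 from EpiLCs (d2) (1.55-fold) and by -0.72 from EpiLCs (d4) (1.64-fold). *Rbbp4*, its close paralog, was at -0.09 against EpiLCs (d2).

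Against EpiLCs (d4), 1 gene was higher with PRDM14 and 1 lower, which is 5.13% of the list beside 4.02% of all genes and 6.43% of genes with a mean signal of at least 6. *Kdm3a* was higher by 0.81 (1.75-fold), with EpiLCs (d4) its lowest array, and *Rbbp7* was the lower gene. *Suz12*, at 0.39, was the nearest outside, and its 6 probe sets lay between 0.21 and 0.41. Between EpiLCs (d4) and EpiLCs (d2) themselves only *Phc2* passed, 2.56% of the list beside 3.30% of all genes and 5.31% of the brighter ones, with *Cbx5* at 0.42 as the nearest outside. The comparisons among EpiLCs + PRDM14, EpiLCs (d4) and EpiLCs (d2) share arrays with each other, and those that use EpiLCs (d2) also share it with the step between ESCs and EpiLCs (d2), so their values are not independent.

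**Figure D3:**
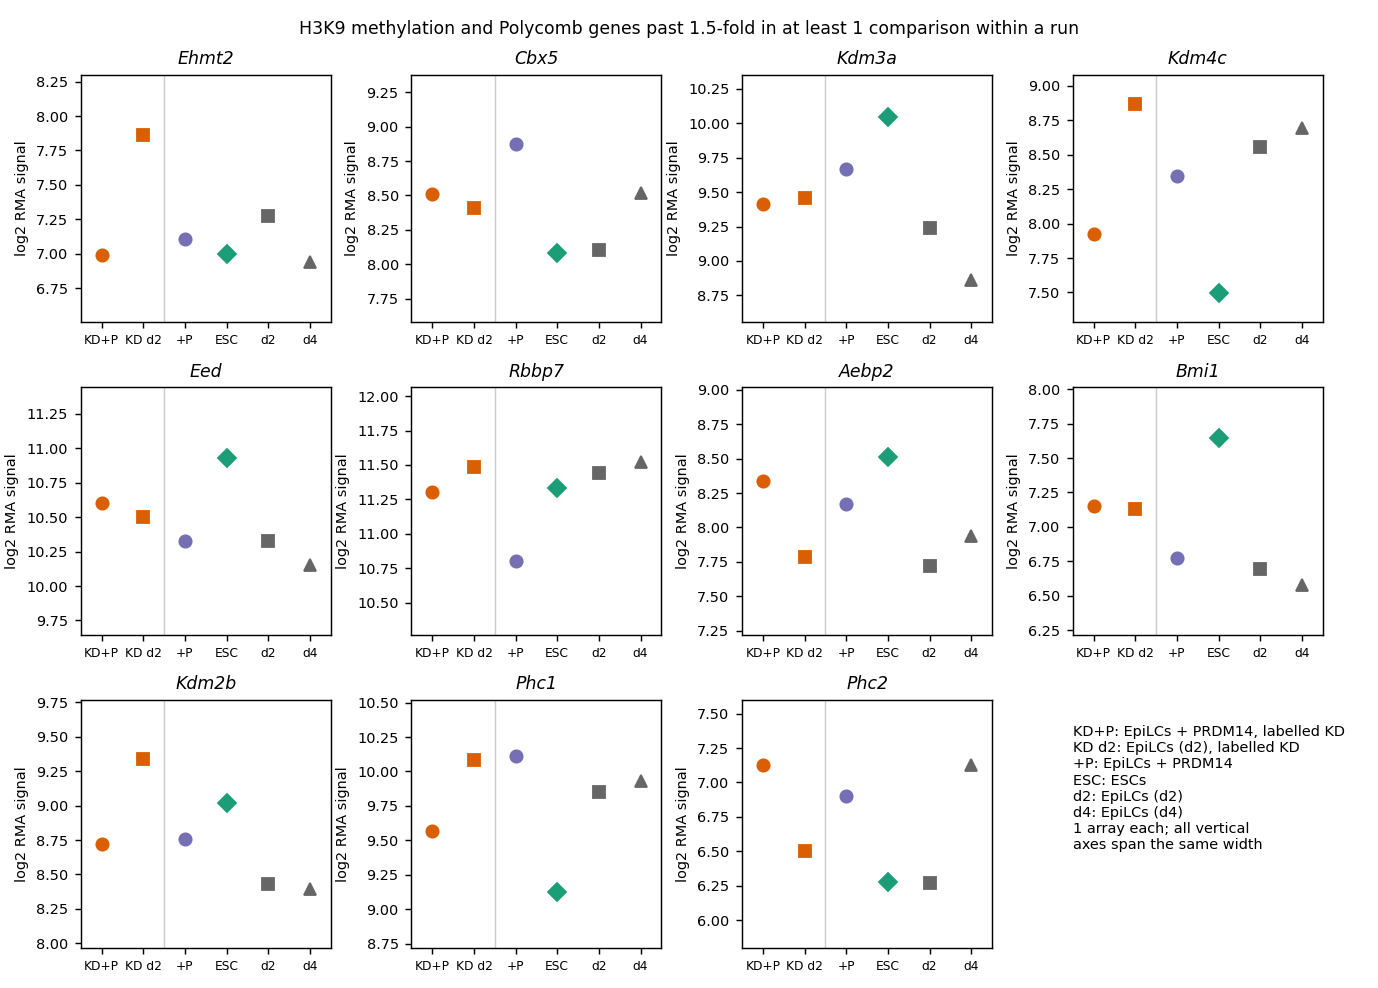
Log2 RMA signal (vertical axis, spanning the same width in every panel) of the 11 genes past 1.5-fold in at least 1 comparison within a run, on the 6 arrays (horizontal axis, 1 point each), with KD-labelled arrays raised by 0.21 and left of the grey line. *Rbbp7* is lowest in EpiLCs + PRDM14 (10.80), *Bmi1* and *Eed* are highest in ESCs, and *Kdm4c* and *Phc1* are lowest there.

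Relative to ESCs, EpiLCs + PRDM14 held 4 higher and 2 lower genes, 15.4% of the list beside 5.14% of all genes and 8.18% of genes with a mean signal of at least 6. *Phc1* was higher by 0.98 (1.98-fold), *Kdm4c* by 0.85 (1.80-fold), *Cbx5* by 0.79 and *Phc2* by 0.63. *Bmi1* was at -0.88 (1.84-fold), with -1.24 at its second probe set, and *Eed* was at -0.60. Of the 7 genes past the threshold between EpiLCs (d2) and ESCs, *Phc1*, *Kdm4c*, *Bmi1* and *Eed* were thus also past it in EpiLCs + PRDM14. *Kdm3a* (-0.37), *Aebp2* (-0.34) and *Kdm2b* (-0.26) were within it, and both comparisons use the ESC array. The same overlap was not counted for all genes. Of the 12 naive markers on the same arrays, 10 were lower in EpiLCs (d2) than in ESCs, and EpiLCs + PRDM14 exceeded EpiLCs (d2) past the threshold for 11. Relative to ESCs, 5.14% of all genes but 41.7% of these markers were past it in EpiLCs + PRDM14. The 3 lower ones were *Klf4* (-1.96), *Tfcp2l1* (-1.50) and *Tbx3* (-1.28), and the 2 higher ones *Dppa3* (2.68) and *Klf2* (0.71).

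The remaining genes stayed within 1.5-fold in each of these comparisons. The H3K9 methyltransferase cofactor genes *Trim28*, the corepressor that brings SETDB1 to retrotransposons, *Atf7ip*, a partner of SETDB1, and *Wiz*, a zinc-finger partner of EHMT1 and EHMT2, ran between 0.02 and 0.31 in EpiLCs + PRDM14 against EpiLCs (d2). *Kdm1a*, the gene of LSD1, was at 0.20. *Kdm4a*, *Kdm4b* and *Kdm4d*, whose products act on trimethylated H3K9 as KDM4C does, were at 0.11, 0.17 and 0.00, and all had a mean signal under 6, as had *Ezh1* (0.26), *Pcgf1*, the gene of the PCGF partner of KDM2B (-0.03), and *Pcgf2* (-0.05). *Ezh2*, the main catalytic subunit gene of PRC2 in dividing cells, read 9.68 in EpiLCs + PRDM14 labelled KD, 9.91 in EpiLCs (d2) labelled KD, 9.61 in EpiLCs + PRDM14, 10.08 in ESCs, 9.93 in EpiLCs (d2) and 9.54 in EpiLCs (d4). It lay -0.32 from EpiLCs (d2) with PRDM14 and -0.39 without it at day 4. Of the chromodomain genes of canonical PRC1, *Cbx7* was at 0.17, *Cbx2* at -0.01 and *Cbx6* at -0.21, and *Pcgf6*, a subunit gene of a variant PRC1 active on germline genes, was at -0.23.

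In the arrays labelled KD, 1 gene was higher with PRDM14 and 3 were lower than in EpiLCs (d2). These make up 10.3% of the list, beside 4.64% of all genes and 7.62% of genes with a mean signal of at least 6. The median was -0.12 for the list, with 27 of 39 genes below 0, and -0.01 for all genes. The share of all genes below 0 was not counted. With the added constant, EpiLCs (d2) labelled KD, which this pair uses, lay above scramble EpiLCs (d2) for 30 of the 39. The median of that difference was 0.15 for the list and 0.03 for all genes. *Kdm2b* at -0.62 was the nearest inside and *Aebp2* at 0.56 the nearest outside.

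*Ehmt2*, which encodes G9a, the H3K9 methyltransferase of euchromatin, read 6.99 in EpiLCs + PRDM14 labelled KD, 7.86 in EpiLCs (d2) labelled KD, 7.10 in EpiLCs + PRDM14, 7.00 in ESCs, 7.27 in EpiLCs (d2) and 6.94 in EpiLCs (d4). The KD-labelled day 2 array alone was high. The difference with PRDM14 was -0.87 (1.83-fold) there and -0.17 in the scramble arrays, but the second probe set gave -0.15 in the KD-labelled arrays. *Kdm4c* was at -0.94 (1.92-fold) in the KD-labelled arrays against -0.21 in the scramble arrays, and *Kdm2b* at -0.62 (1.54-fold, -0.57 and short of the threshold under quantile normalization) against 0.33. *Phc2* was higher by 0.62 with PRDM14 in the KD-labelled arrays and by 0.63 in the scramble arrays, which makes it the one gene of the list past 1.5-fold in both pairs. However, scramble EpiLCs (d4) without PRDM14 exceeded EpiLCs (d2) by 0.86 for this gene. No day 4 array labelled KD exists, so PRDM14 cannot be told apart from replating, medium and time in the KD-labelled pair.

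Taking the difference with PRDM14 in KD-labelled arrays minus that in scramble arrays, 5 genes passed 1.5-fold and all 5 were below 0. They are *Kdm2b* (-0.95), *Phc1* (-0.78), *Kdm4c* (-0.73), *Ehmt2* (-0.71) and *Cbx5* (-0.67), and *Suv39h2* at 0.48 was the nearest outside. This is 12.8% of the list beside 3.25% of all genes and 5.12% of genes with a mean signal of at least 6, and 385 of all genes (2.25%) passed below 0. The constant added to the KD-labelled arrays cancels in this quantity, which rests on 4 single arrays and was not tested. With that constant, *Kdm2b* (0.91) and *Ehmt2* (0.59) differed between KD-labelled and scramble arrays more at day 2 than with PRDM14 (-0.04 and -0.115). *Phc1* (-0.54), *Kdm4c* (-0.42) and *Cbx5* (-0.36) differed more with PRDM14 than at day 2 (0.24, 0.31 and 0.31). For *Cbx5* the other 4 probe sets gave -0.36 to 0.02. For *Ehmt2* the second probe set gave -0.39, and the mean over its probe sets, -0.55, was short of the threshold. The 12 naive markers gave 9 higher with PRDM14 in the KD-labelled arrays and 11 in the scramble arrays. In the same quantity as the 5 genes, 1 naive marker passed above 0 and 4 below it, namely *Nr0b1* (-1.83), *Tcl1* (-1.72), *Nanog* (-0.84) and *Zfp42* (-0.79), with a median of -0.30 over the 12, and their part in these values was not tested.

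**Figure D4:**
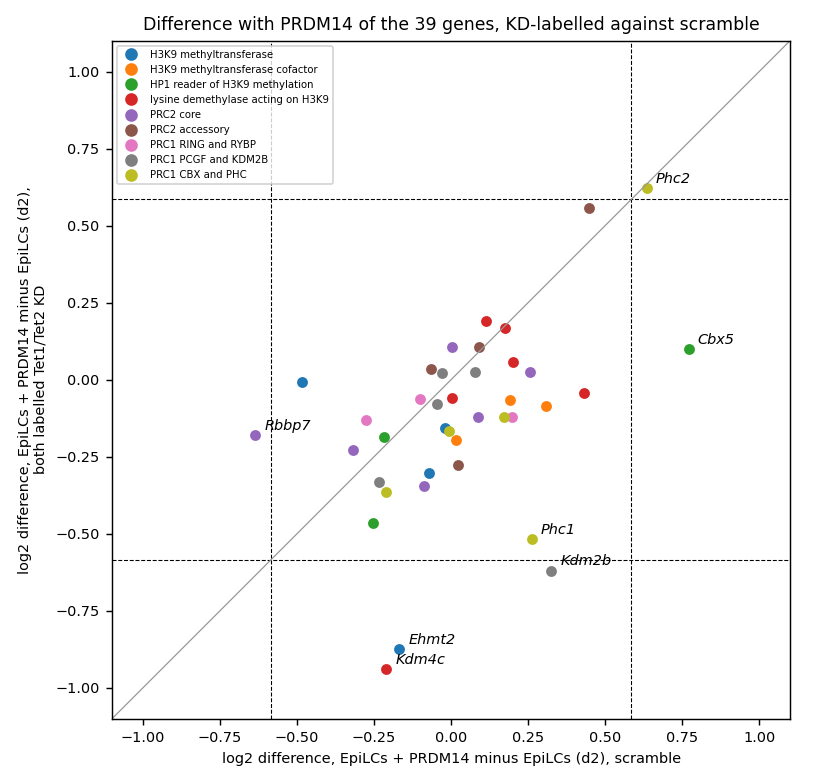
Log2 difference of EpiLCs + PRDM14 minus EpiLCs (d2) in the arrays labelled *Tet1*/*Tet2* KD (vertical axis) and in the scramble arrays (horizontal axis) for the 39 genes, coloured by role, with dashed lines at 1.5-fold and the diagonal of equal differences. *Phc2* lies on the diagonal past both lines, whereas *Kdm4c* (-0.94), *Ehmt2* (-0.87) and *Kdm2b* (-0.62) pass the lower line in the KD-labelled arrays only.

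Set against the scramble culture of the same name, EpiLCs (d2) labelled KD had 2 genes higher and 3 lower, 12.8% of the list beside 5.54% of all genes and 5.82% of the brighter ones. *Kdm2b* was higher by 0.91 (1.88-fold) and *Ehmt2* by 0.59 (1.51-fold), with 0.57 at its second probe set. For *Ehmt2* the difference was 0.38 without the added constant. Of the 12 naive markers, 6 were higher in the same pair and none lower, and their part in these values was not tested. *Pcgf2*, which encodes a PCGF subunit of canonical PRC1, read 4.59 in EpiLCs + PRDM14 labelled KD, 4.67 in EpiLCs (d2) labelled KD, 5.45 in EpiLCs + PRDM14, 5.53 in ESCs, 5.50 in EpiLCs (d2) and 5.42 in EpiLCs (d4). The KD-labelled arrays lay below the other 4 for this dim probe set, by -0.83 at day 2 and -0.86 with PRDM14, whereas its other probe set gave -0.12 and -0.10. *Phf1*, a Polycomb-like gene, was at -0.64 and *Suv39h2* at -0.63, and the other probe sets of *Suv39h2* gave -0.31 and -0.07. With PRDM14, *Pcgf2* alone passed between KD-labelled and scramble arrays, 2.56% of the list beside 6.95% of all genes and 7.40% of the brighter ones, and *Phf1* was at -0.54. Over all genes, 59.6% of the calls at day 2 were higher in the KD-labelled array, but 13.1% without the added constant, and 51.5% with PRDM14, but 12.8% without it. Such levels therefore depend on how the KD-labelled and scramble columns are brought together.

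Other genes of the same systems were counted in EpiLCs + PRDM14 against EpiLCs (d2). Of 22 measured H3K9 pathway genes outside the list, 2 were higher and 2 lower with a median of -0.10, which is 18.2% of them beside 4.63% of all genes and 7.56% of the brighter ones. The higher ones were *Zfp462* (0.90), a zinc-finger gene, and *Cdyl* (0.69), a chromodomain corepressor gene. The lower ones were *Pphln1* (-0.97), a subunit gene of the HUSH silencing complex, and *Chaf1b* (-0.68), a subunit gene of the chromatin assembly factor CAF-1. None of the 22 passed in the KD-labelled arrays, where 4.64% of all genes and 7.62% of the brighter ones did. Of 30 other Polycomb genes, *Fbrsl1* (1.04), a relative of the PRC1 partner gene *Auts2*, was the only call in the scramble arrays. That is 3.33% of the 30 beside 4.63% of all genes. In the KD-labelled arrays the calls were *Sfmbt2* (1.25), an imprinted Polycomb gene, and *Pcgf5* (1.02), a variant PRC1 gene. These are 6.67% of the 30 beside 4.64% of all genes.

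Genes known as targets of these systems were counted too. Among 57 developmental genes known as Polycomb targets, *Wt1*, a transcription factor gene of kidney and gonad, alone passed with PRDM14 against EpiLCs (d2), which is 1.75% of the list beside 4.63% of all genes. It was at -1.04 in the scramble arrays and -1.24 in the KD-labelled arrays, and it was higher by 2.14 in EpiLCs (d2) than in ESCs, where *Cdkn2a*, the cell cycle inhibitor locus, was higher by 1.03. Against EpiLCs (d4), *Wt1* was at -1.16 and *Cdkn2b*, another cell cycle inhibitor gene, was higher by 0.67. Most of the 57 read under 6, and genes this dim pass the threshold less often. The low share therefore does not show that these targets stayed unchanged. Of 14 germline and early embryo genes known to be silenced through H3K9 methylation, against EpiLCs (d2) 3 were higher and 2 lower with PRDM14 (median -0.03), which is 35.7% of the list beside 4.63% of all genes. The higher ones were the early embryo genes *Tcstv1* (2.39), *Zfp352* (1.49) and *Tcstv3* (1.32), and the lower ones the germline genes *Mael* (-1.01) and *Stk31* (-0.70). *Mael* and *Stk31* were also lower in EpiLCs (d4) than in EpiLCs (d2), by -1.28 and -1.07, and stood at 0.27 and 0.37 in EpiLCs + PRDM14 against EpiLCs (d4). In that comparison 4 of the 14 were higher and none lower, the 3 early embryo genes and *Dazl* (1.51), 28.6% of the list beside 4.02% of all genes. In the KD-labelled arrays the same 3 early embryo genes were higher, by 1.63, 2.24 and 1.98, and *Stk31* (-1.42), *Dazl* (-1.07) and *Mael* (-0.90) were lower, 42.9% of the list beside 4.64% of all genes. Between EpiLCs (d2) and ESCs, 1 of the 14 was higher and 6 were lower, so 7 of the 14 passed, beside 5.02% of all genes, with the germ cell genes *Dazl* at -2.50 and *Magea5* at -2.37 the farthest from 0.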

How the data were processed

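The authors labelled 150 ng of total RNA per culture with the GeneChip 3′ IVT Express Kit, hybridized it to Affymetrix mouse array strips and deposited log2 values made by RMA with default settings in the Affymetrix Expression Console (version not given in the sources used here). No raw scans were used. Of 45141 probe sets, 104 controls were left out. A platform annotation gives 1 symbol for 28898 of the others, several for 551 and none for 15588.

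Each gene was given by its brightest probe set, and both KD-labelled arrays were raised by the constant that brings their deposited log2 medians to those of the others. Differences were called at 1.5-fold, the fold change used in the study, with no p-value, since each condition has 1 array. The number of arrays limits the precision. The genes, lists and comparisons were chosen with earlier results of these data known. Named genes are those past 1.5-fold in a comparison within a run or between KD-labelled and scramble arrays, with the other genes given by role. Further probe sets and genes outside the list were added where they were past the threshold or differed. Alternatives were a 2-fold threshold, quantile normalization, equal medians, the mean over probe sets, a minimum mean signal of 6 and no added constant. Calculations used Python 3.11.15, pandas 2.3.3 and numpy 2.4.6, and the calling of differences was tested on simulated data.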

Additional observations from a re-analysis of the deposited data

Results flagged for a closer look

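*Kdm2b*, the gene of the CpG-island-binding subunit of variant PRC1, and *Phc1*, a Polyhomeotic gene of canonical PRC1, lay on opposite sides of 0 in the KD-labelled and the scramble arrays. *Kdm2b* differed between EpiLCs + PRDM14 and EpiLCs (d2) by -0.62 in the KD-labelled arrays and by 0.33 in the scramble arrays, a gap of -0.95. With the added constant, the KD-labelled and scramble arrays with PRDM14 read alike for *Kdm2b* (8.72 and 8.75). The EpiLCs (d2) arrays did not (9.34 and 8.43), so this gap lies mostly in the day 2 arrays. *Phc1* differed by -0.52 in the KD-labelled arrays and by 0.26 in the scramble arrays, a gap of -0.78. Between KD-labelled and scramble arrays, *Phc1* differed by -0.54 with PRDM14 and by 0.24 at day 2. Of the differences within a pair, only the -0.62 of *Kdm2b* passed 1.5-fold. Other genes of the list also changed side, such as *Kdm3a*, at -0.04 in the KD-labelled arrays and 0.43 in the scramble arrays. Each direction comes from a single pair of arrays, *Kdm2b* and *Phc1* each have 1 probe set here, and the gaps were not tested.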

How the results depend on the processing

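Of 34 calls of single genes, 31 kept their side of the threshold under quantile normalization and 33 with each array shifted to the same median. With the mean over all probe sets 24 kept it, but this mean cannot change a gene that has a single probe set. Among called genes with several probe sets only *Bmi1* kept its calls, and the 10 calls of the others fell short. No direction turned. With the mean over probe sets the count fell to 2 for EpiLCs (d2) labelled KD against scramble (5 with the brightest probe set), to 0 for EpiLCs + PRDM14 labelled KD against scramble (1) and to 3 for the difference between the PRDM14 differences (5). At 2-fold the count was 1, *Kdm4c*, between EpiLCs (d2) and ESCs, and 0 in each of the other 8 comparisons. Without the added constant, 5 genes in place of 1 passed between EpiLCs + PRDM14 labelled KD and scramble, and with a minimum mean signal of 6 the count was 0. The constant moves the median of all genes by 0.21 in these comparisons. At 2-fold the share of higher calls over all genes was 69.7% in place of 59.6% for EpiLCs (d2) labelled KD, 69.0% in place of 58.8% for PRDM14 against EpiLCs (d2) and 58.2% in place of 45.8% for that pair labelled KD. No paired analysis was possible because each condition has 1 array, and for the same reason no array could be left out.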
